A study of Mus musculus with 6 samples.

Results

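The genes described here encode the enzymes of cholesterol and fatty acid synthesis and the proteins that sense sterols and switch those enzymes on. They were taken by symbol from a count table of mouse neural stem cells. All 32 symbols on the list were found among the 24503 gene symbols of the table, and all 32 were among the 13683 genes with enough counts to be tested. Related genes of lipid handling, grouped in 7 lists, were read beside them.

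Cells make cholesterol from acetyl-CoA through mevalonate, isoprenoids and squalene, and make fatty acids from the same precursor by carboxylation, chain building, elongation and desaturation. The genes of both routes are switched on by SREBP transcription factors. These are held in the endoplasmic reticulum by SCAP and INSIG proteins while sterols are plentiful and are released when sterols run low. The brain makes nearly all of its own cholesterol, because lipoproteins of the blood do not cross into it, and dividing neural progenitors need sterols and fatty acids for new membranes.

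RNA was sequenced from primary cortical neural stem cells of E13.5 mouse embryos, enriched as neurospheres and then grown on laminin with FGF at 10 ng/mL and EGF at 20 ng/mL. The control group, called WT, came from Phf2 flox/flox mice without Cre (3 libraries). The knockout group, called KO, carried the same floxed alleles together with a Nestin-Cre transgene (3 libraries), so both groups share the floxed alleles and differ in the transgene as well as in the deletion, and the effects of these cannot be told apart. Phf2 encodes a Jumonji-family histone demethylase, and the comparison asks which transcripts change in neural stem cells when it is lost. In Nestin-Cre mice the recombinase is driven by regulatory sequence of Nestin, a gene of neural progenitors. The labels do not say whether the libraries of a group came from separate embryos or cultures, so the p-values below reflect no more than library-to-library spread, and that spread may be technical.

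Total counts ranged from 33413444 to 46890314 per library. Phf2 itself was at 108.6, 90.4 and 77.8 CPM (the count per gene scaled to the size of the library) in WT 1, 2 and 3 and at 56.3, 48.1 and 48.8 CPM in KO 1, 2 and 3, lower in all 3 KO libraries (log2 fold change −0.84 ± 0.074, SE, adjusted p = 0.000123 with the block described next and 0.182 without it, edgeR). Which exons were deleted is not stated in the labels, so these whole-gene values do not measure intact transcript. The 8 neural stem cell markers summed to between 9427 and 10840 CPM in every library. Of 7 microglial markers, Aif1, Ptprc and C1qa were at 0 and the list summed to at most 1.19 CPM, and the 5 endothelial markers summed to at most 2.11 CPM. The libraries numbered 1 stood apart from those numbered 2 and 3 in both groups, so each comparison below was fitted a second time with replicate number as a blocking term, which compares KO with WT inside each number. In bulk RNA, fewer cells of a type and less RNA per cell cannot be told apart.

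None of the 32 genes passed the test between KO and WT. Over all 13683 genes, edgeR's quasi-likelihood fit without the block called 0 of the 32 at a Benjamini-Hochberg adjusted p under 0.05, and 0.0585% of the whole table (0.0292% higher and 0.0292% lower in KO). At an unadjusted p under 0.05 it was 0 of the 32 and 5.81% of all genes. With the replicate block 0 were again called, although 9.79% of all genes were (1340 genes, 456 higher and 884 lower in KO), and 1 of the 32, Stard4, had an unadjusted p under 0.05, against 23.7% of all genes. That count depended on the libraries. Without those numbered 3 the blocked fit gave 11 of the 32, and 3481 of 13692 genes. Without number 1 it gave 1 of the 32 and 2660 of 13764 genes, and without number 2, 1 and 2655 of 13756. DESeq2 called 0 of the 32 in the unblocked design (1 had p under 0.05 before adjustment) and 1, Stard4, in the blocked one.

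The confidence intervals show how large a difference between these libraries could have gone unseen, given the library-to-library spread. They do not bound a genotype difference between embryos or cultures. The labels do not say whether the libraries of a group were separate in that sense, and the block was chosen from these same data. With the block, the log2 fold changes of the 32 genes ran from −0.08 (Scap) to 0.26 (Stard4) with a median of 0.07, and the median over all genes was 0.01. Their 95% confidence intervals stayed inside ±0.5 on the log2 scale for 32 of 32, while 70.9% of all tested genes had intervals that narrow. Expressed as a ratio of KO to WT, the lowest limit was 0.851 (Mvk) and the highest 1.35 (Stard4). The median WT level of the 32 was 235 CPM, not scaled by gene length, against 29.8 CPM over all tested genes, and every one had at least 837 counts in each library. Without the block the intervals were wider, and 31 of 32 stayed inside ±1, Tm7sf2 being the exception.

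**Figure D1:**
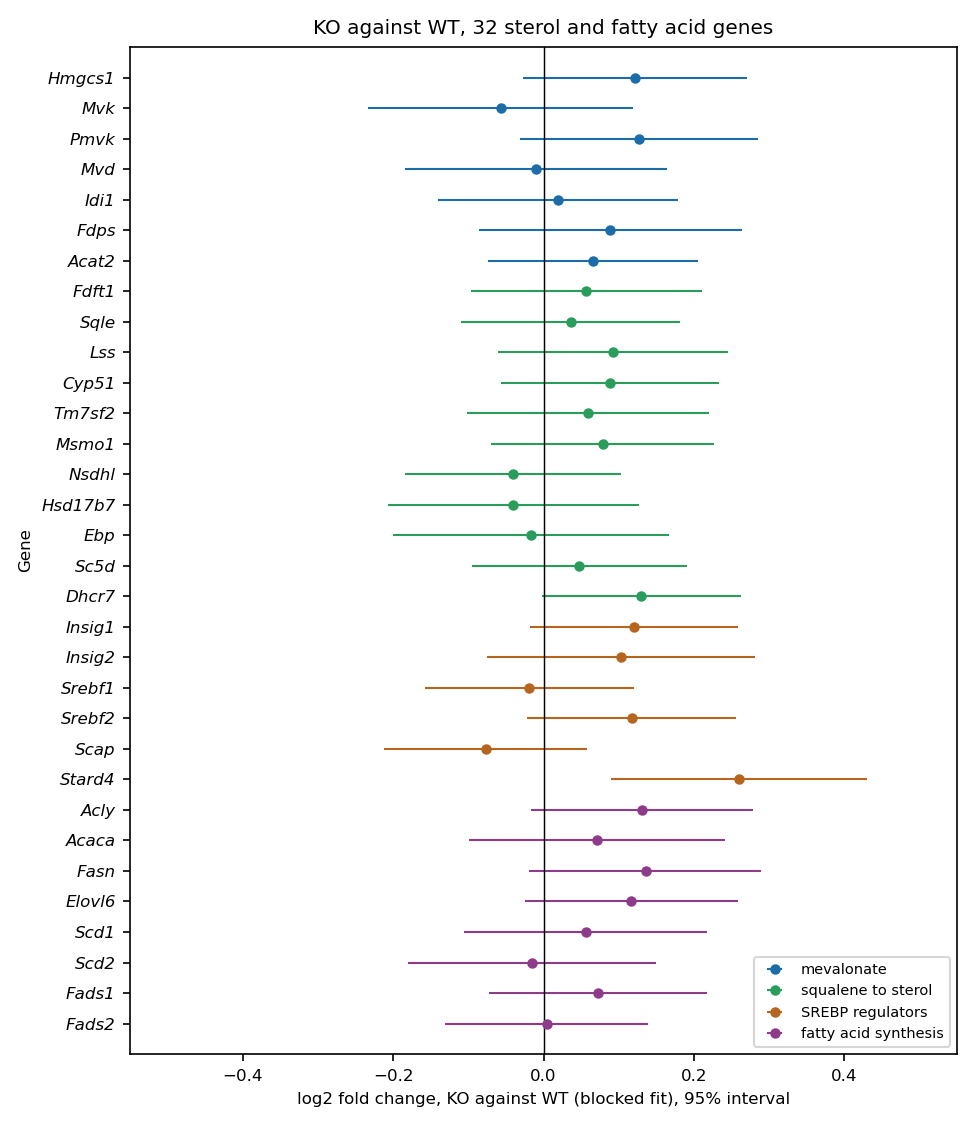
Log2 fold change of KO against WT (horizontal axis, blocked fit) for the 32 genes, coloured by role; points are estimates and bars are 95% confidence intervals from 3 libraries per group. All intervals lie inside ±0.5, and Stard4, at 0.26, lies farthest from 0.

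A lean toward higher values in KO was small. With the block 24 of the 32 estimates were above 0 and 8 below, against 7088 above and 6595 below over all tested genes. In 4 genes, Hmgcs1, Insig1, Srebf2 and Fasn, all KO libraries lay above all WT libraries, while 0 had them all below. Over all tested genes 4.49% were higher in this way and 6.71% lower. The 4 log2 fold changes were between 0.12 and 0.14. The median log2 fold change of the 32, 0.07 without the block, was 0.022 when KO 1 was left out, 0.028 in the libraries numbered 2 and 3 alone and 0.039 under upper-quartile scaling. Its range over single libraries left out, given in the closing section, also reached above 0.07. Between WT 1 and KO 1 the difference ran from −0.06 to 0.25 and was above 0 for 26 genes, and between the libraries numbered 2 and 3 it ran from −0.11 to 0.30 and was above 0 for 22. Genes of a shared pathway vary together, so these counts of signs carry no test.

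The promoters of those 4 genes are shown first, since they are the ones in which KO and WT did not overlap, followed by those of Idi1 and Tm7sf2, which lay farthest apart in the contrast of library numbers given below among genes with a window. SREBP binds sterol regulatory elements and works with NF-Y, which binds CCAAT, and with Sp1, which binds GGGCGG. RefSeq promoter windows on GRCm38.p6, each from 250 bases before to 50 bases after a transcription start, were found for 25 of the 32 genes (33 windows, because some genes have several starts that can overlap). They were searched on both strands for TCACNCCAC (a form of the sterol regulatory element), CACGTG (an E-box), CCAAT and GGGCGG. Each is printed 5′ to 3′ on the strand of its gene, with every match to any of the 4 motifs in capitals; neighbouring or overlapping matches merge into 1 run. Hmgcs1 lies at chr13:119690101-119690400 (plus strand), Insig1 at chr5:28071162-28071461 (plus), Srebf2 at chr15:82147019-82147318 (plus), Fasn at chr11:120824498-120824797 (minus), Idi1 at chr13:8885356-8885655 (plus) and Tm7sf2 at chr19:6067801-6068100 (minus).
Hmgcs1: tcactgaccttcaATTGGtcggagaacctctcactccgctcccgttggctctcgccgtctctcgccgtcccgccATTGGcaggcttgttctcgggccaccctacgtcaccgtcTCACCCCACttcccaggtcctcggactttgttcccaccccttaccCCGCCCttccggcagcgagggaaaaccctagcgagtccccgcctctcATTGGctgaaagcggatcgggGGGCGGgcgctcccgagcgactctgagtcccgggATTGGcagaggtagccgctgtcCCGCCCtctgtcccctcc
Insig1: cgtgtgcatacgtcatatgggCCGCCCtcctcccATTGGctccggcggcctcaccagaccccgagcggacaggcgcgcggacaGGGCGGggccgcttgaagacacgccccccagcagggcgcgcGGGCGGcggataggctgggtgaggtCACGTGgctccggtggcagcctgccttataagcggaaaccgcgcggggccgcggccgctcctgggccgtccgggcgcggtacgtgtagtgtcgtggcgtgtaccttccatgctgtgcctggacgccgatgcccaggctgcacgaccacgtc
Srebf2: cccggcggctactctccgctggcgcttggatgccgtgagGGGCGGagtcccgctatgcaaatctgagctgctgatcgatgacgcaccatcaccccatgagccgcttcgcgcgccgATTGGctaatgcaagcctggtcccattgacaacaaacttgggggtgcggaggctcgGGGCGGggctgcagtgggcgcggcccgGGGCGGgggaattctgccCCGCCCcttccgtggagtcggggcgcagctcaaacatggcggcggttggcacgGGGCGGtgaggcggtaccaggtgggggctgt
Fasn: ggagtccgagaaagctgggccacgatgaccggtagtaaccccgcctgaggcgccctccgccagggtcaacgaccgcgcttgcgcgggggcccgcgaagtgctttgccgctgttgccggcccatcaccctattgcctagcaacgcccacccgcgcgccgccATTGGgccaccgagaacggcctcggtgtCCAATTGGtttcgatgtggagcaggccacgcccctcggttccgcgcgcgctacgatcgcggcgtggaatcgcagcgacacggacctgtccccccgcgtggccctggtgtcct
Idi1: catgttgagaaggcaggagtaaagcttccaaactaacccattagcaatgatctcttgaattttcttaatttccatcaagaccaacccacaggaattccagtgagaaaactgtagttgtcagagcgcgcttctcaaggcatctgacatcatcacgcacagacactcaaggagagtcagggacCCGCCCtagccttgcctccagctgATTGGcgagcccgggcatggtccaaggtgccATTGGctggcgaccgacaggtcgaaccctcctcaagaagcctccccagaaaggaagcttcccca
Tm7sf2: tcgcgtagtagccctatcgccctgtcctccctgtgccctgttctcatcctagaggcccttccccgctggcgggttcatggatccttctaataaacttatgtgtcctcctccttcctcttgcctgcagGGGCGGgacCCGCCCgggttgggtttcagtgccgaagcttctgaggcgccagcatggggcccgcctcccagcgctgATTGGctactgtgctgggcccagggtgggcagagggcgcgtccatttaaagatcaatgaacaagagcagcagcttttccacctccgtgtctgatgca

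CCAAT was the motif that these 6 windows shared. The Hmgcs1 window held the single match to TCACNCCAC among the 33 windows, as TCACCCCAC starting 137 bases before the start site, with CCAAT in 4 places and GGGCGG in 3. Insig1 held the E-box 101 bases before its start. Srebf2 held GGGCGG in 5 places and CCAAT once, and Fasn held CCAAT in 3 places, a pair of which overlap in CCAATTGG, and no GGGCGG. Idi1 held CCAAT in 2 places and Tm7sf2 in 1. Over the 33 windows, CCAAT was found in 63.6% and GGGCGG in 75.8%, against 37.4% and 35.7% of all 32851 windows. CACGTG was found in 18.2% against 7.15%, and TCACNCCAC in 3.03% against 1.24%. The set of all windows was not limited to genes tested here, so promoters of genes with unlike expression are compared. Overlapping windows of Scap share a CACGTG match, which is counted in each. A match is a run of letters and no evidence that a factor binds there.

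On GRCm38 (GENCODE vM21) Srebf2 and the 2 genes of each role with the lowest blocked p lie at chr13:119690379-119708260 (Hmgcs1), chr3:89454541-89469013 (Pmvk), chr7:143823145-143848410 (Dhcr7), chr5:4081145-4104746 (Cyp51), chr5:28071363-28078662 (Insig1), chr18:33199355-33213862 (Stard4), chr15:82147181-82205379 (Srebf2), chr11:100476353-100528000 (Acly) and chr11:120805846-120824547 (Fasn).

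Among the 7 genes of the mevalonate segment, which turns acetyl-CoA into the isoprenoid farnesyl diphosphate, 0 passed the test in either fit. Hmgcs1, the enzyme that makes HMG-CoA, was at 1189, 1229 and 1235 CPM in WT 1, 2 and 3 and at 1309, 1325 and 1339 CPM in KO 1, 2 and 3. All KO libraries lay above all WT libraries, by a log2 fold change of 0.12 ± 0.067 (SE) (blocked edgeR test, adjusted p = 0.308, and 0.999 without the block). Pmvk, which adds the second phosphate to mevalonate, was at 58.8, 69.2 and 81.1 CPM in WT and 69.0, 77.8 and 80.2 CPM in KO, with overlapping groups and a log2 fold change of 0.13 ± 0.071 (SE), adjusted p = 0.321 in the blocked edgeR test. Neither gene was called by this test.

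The remaining 5 mevalonate genes had blocked log2 fold changes between −0.06 and 0.09. Idi1, which interconverts the isoprenoid building blocks, was at 385, 289 and 300.3 CPM in WT and 437, 281 and 283 CPM in KO, so its spread lay between library numbers and not between genotypes. Mvd, the decarboxylase that produces the first isoprenoid, showed the same order, with 90.8, 72.8 and 79.0 CPM in WT and 100.8, 74.1 and 68.3 CPM in KO. Mvk, mevalonate kinase, ran the other way, with 70.3, 82.9 and 100.5 CPM in WT and 70.8, 88.3 and 83.4 CPM in KO. Fdps, farnesyl diphosphate synthase, was at 316, 329 and 391 CPM in WT and 376, 361 and 359.6 CPM in KO, and Acat2, which condenses acetyl-CoA, stayed between 243 and 279 CPM in all 6 libraries. With the libraries numbered 3 left out of the blocked fit, Fdps was called at 0.19 ± 0.051 (log2, SE), with edgeR giving an adjusted p of 0.046; over all alternatives its log2 fold change ran from 0.0023 to 0.19.

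Among the 11 genes that convert farnesyl diphosphate through squalene and lanosterol to cholesterol, 0 passed in either fit, and the blocked log2 fold changes lay between −0.04 and 0.13. Dhcr7, the reductase of one of the last steps, was at 248, 187 and 194 CPM in WT and 276, 202 and 211 CPM in KO. KO was higher within each number while the groups overlapped, with a log2 fold change of 0.13 ± 0.060 (SE) and adjusted p = 0.221 in the blocked edgeR test. Cyp51, the lanosterol demethylase, was at 470, 413 and 422 CPM in WT and 523, 444 and 424 CPM in KO, a log2 fold change of 0.09 ± 0.065 (SE), for which edgeR gave an adjusted p of 0.463 with the block. As for Dhcr7, the higher value in each group was the library numbered 1.

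Sqle, the squalene epoxidase, was at 371, 294 and 308 CPM in WT and 406, 302 and 295 CPM in KO, and Msmo1, a sterol methyl oxidase, at 259, 211 and 231 CPM in WT and 293, 227 and 223 CPM in KO. Both again placed number 1 on top in each genotype. Fdft1, squalene synthase, ranged from 189.8 to 215 CPM over the 6 libraries, Lss, which closes the ring of lanosterol, from 209 to 258 CPM, and Nsdhl, a sterol dehydrogenase, from 133 to 146 CPM. Hsd17b7 (50.3 to 61.9 CPM), Ebp, a sterol isomerase (26.6 to 31.6 CPM), and Sc5d, a sterol desaturase (76.3 to 95.7 CPM), were as little changed, with blocked log2 fold changes between −0.04 and 0.05.

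Tm7sf2 had by far the widest spread of the 32, and none of it followed genotype. It was at 28.6, 57.0 and 67.1 CPM in WT 1, 2 and 3 and at 29.7, 64.3 and 64.7 CPM in KO 1, 2 and 3. The blocked log2 fold change was 0.06 ± 0.072 (SE), against 0.06 ± 0.41 without the block. Tm7sf2 and Lbr, the lamin B receptor, encode enzymes for the same reduction of the sterol ring. Lbr ran opposite, at 99.4, 55.3 and 50.3 CPM in WT and 111.4, 69.9 and 69.6 CPM in KO, so the ratio of Tm7sf2 to Lbr CPM was 0.288 and 0.267 in WT 1 and KO 1 and between 0.919 and 1.33 in the other 4 libraries. Lbr rose in KO with the block, by 0.32 ± 0.074 (log2, SE), and edgeR gave adjusted p = 0.0233 with the block and 0.999 without it; the call was lost with KO 2 and KO 3 summed as 1 library.

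The lowest p of the whole list was that of Stard4, 1 of the 6 genes grouped as SREBP regulators. Stard4, a carrier that moves cholesterol between membranes and an SREBP target, was at 87.0, 64.1 and 52.9 CPM in WT 1, 2 and 3 and at 98.3, 71.2 and 72.6 CPM in KO 1, 2 and 3. KO was higher within every number, yet the groups overlapped because the library numbered 1 was the highest of each. KO exceeded WT by 0.26 ± 0.076 on the log2 scale (SE), for which blocked edgeR gave adjusted p = 0.061 and unblocked edgeR 0.999. Over the 21 alternatives its adjusted p ran from 0.0308 to 1 and its log2 fold change from 0.08 to 0.48; it was called by DESeq2 with the block (adjusted p = 0.0477), by edgeR with the block and no filter on low counts (0.0308) and by edgeR with the block and without the libraries numbered 2 (0.0459).

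Srebf2, the SREBP gene tied mainly to sterol synthesis, was at 465, 488 and 479.5 CPM in WT and 502, 531 and 520.2 CPM in KO, a log2 fold change of 0.12 ± 0.063 (SE). Insig1, the SREBP-induced retention factor, was at 313, 342 and 344 CPM in WT and 344, 381 and 359 CPM in KO, a log2 fold change of 0.12 ± 0.062 (SE). Their adjusted p were 0.295 and 0.280 in the blocked edgeR test. For both genes the KO libraries all exceeded the WT ones, though for Insig1 the closest pair, KO 1 and WT 3, nearly met.

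Srebf1, the SREBP gene tied mainly to fatty acid synthesis, followed library number instead, at 274, 373 and 389 CPM in WT and 265, 385 and 375 CPM in KO, with a blocked log2 fold change of −0.02 ± 0.063 (SE). The ratio of Srebf1 to Srebf2 CPM was 0.590 in WT 1 and 0.527 in KO 1, and between 0.721 and 0.810 in the other 4 libraries. Scap, the escort of SREBP, was at 187, 157 and 153 CPM in WT and 186, 148 and 140.0 CPM in KO, so KO was lower within each number, by −0.08 ± 0.060 (log2, SE), adjusted p = 0.497 in the blocked edgeR test. Insig2, the second retention factor, ranged from 22.6 to 25.8 CPM.

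Among the 8 genes of fatty acid synthesis 0 passed in either fit. Fasn, the fatty acid synthase, was at 1129, 1202 and 1096 CPM in WT and 1269, 1241 and 1251 CPM in KO, all above WT, with a log2 fold change of 0.14 ± 0.069 (SE), adjusted p = 0.275 by blocked edgeR. Acly, which supplies cytosolic acetyl-CoA from citrate, was at 631, 545 and 539 CPM in WT and 731, 572 and 580.3 CPM in KO, a log2 fold change of 0.13 ± 0.066 (SE), adjusted p = 0.272 by blocked edgeR. KO was higher than WT within each number for Acly too, but its groups overlapped.

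Acaca, the carboxylase that commits acetyl-CoA to fatty acids, was at 223, 207 and 169 CPM in WT and 246, 188 and 196 CPM in KO. Elovl6, which elongates palmitate, was at 286, 226 and 199 CPM in WT and 310.3, 231 and 229 CPM in KO. In both, number 1 was the highest library of each genotype. Scd1 and Scd2, stearoyl-CoA desaturases that make monounsaturated fatty acids, ran opposite: Scd1 was at 655, 1098 and 952 CPM in WT and 655, 1077 and 1091 CPM in KO.

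Scd2 was at 4267, 6326 and 5989 CPM in WT and 4101, 6171 and 6182 CPM in KO, lowest in the library numbered 1 of each group. These paralogs share sequence, and the sources used here do not say how the authors' counting divided reads between them, so the level of each is uncertain; the ratio of Scd1 to Scd2 CPM stayed between 0.154 and 0.177. The polyunsaturated fatty acid desaturases Fads1 (534 to 692 CPM) and Fads2 (278 to 305 CPM) were also lowest in number 1, and their blocked log2 fold changes were 0.07 and 0.0042.

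Per kilobase of exon, Scd2 was the most abundant of the 32, with 1012 CPM per kb in WT and the rank of 13 among the tested genes with a known length. Hmgcs1 led the mevalonate genes with 265 CPM per kb, Cyp51 the later sterol steps with 98.5 and Insig1 the regulators with 107.5, against 6.61 for its paralog Insig2. Together the 32 genes took between 1.38% and 1.64% of the scaled counts. The sum over the 7 mevalonate genes was 2362, 2315 and 2443 CPM in WT and 2642, 2458 and 2471 CPM in KO, and that over the 8 fatty acid genes was 8009, 10540 and 9875 CPM in WT and 8131, 10480 and 10500 CPM in KO, the latter set mostly by Scd2.

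A wider spread of these genes followed library number. Described with no test, since the split was known from earlier results, 13 of the 32 were higher in both libraries numbered 1 than in all 4 others and 8 were lower, which is 40.6% and 25.0% of the list; over all tested genes it was 30.9% and 31.7% (62.6% together), so a split by number was general in these libraries. The 13 higher genes were Mvd, Idi1, Sqle, Cyp51, Msmo1, Hsd17b7, Sc5d, Dhcr7, Scap, Stard4, Acly, Acaca and Elovl6. The 8 lower genes were Mvk, Pmvk, Tm7sf2, Srebf1, Scd1, Scd2, Fads1 and Fads2. Among the 11 genes from squalene to sterol 6 were higher and 1, Tm7sf2, lower, while among the 8 fatty acid genes 3 were higher and 4 lower, the 4 being the desaturases.

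**Figure D2:**
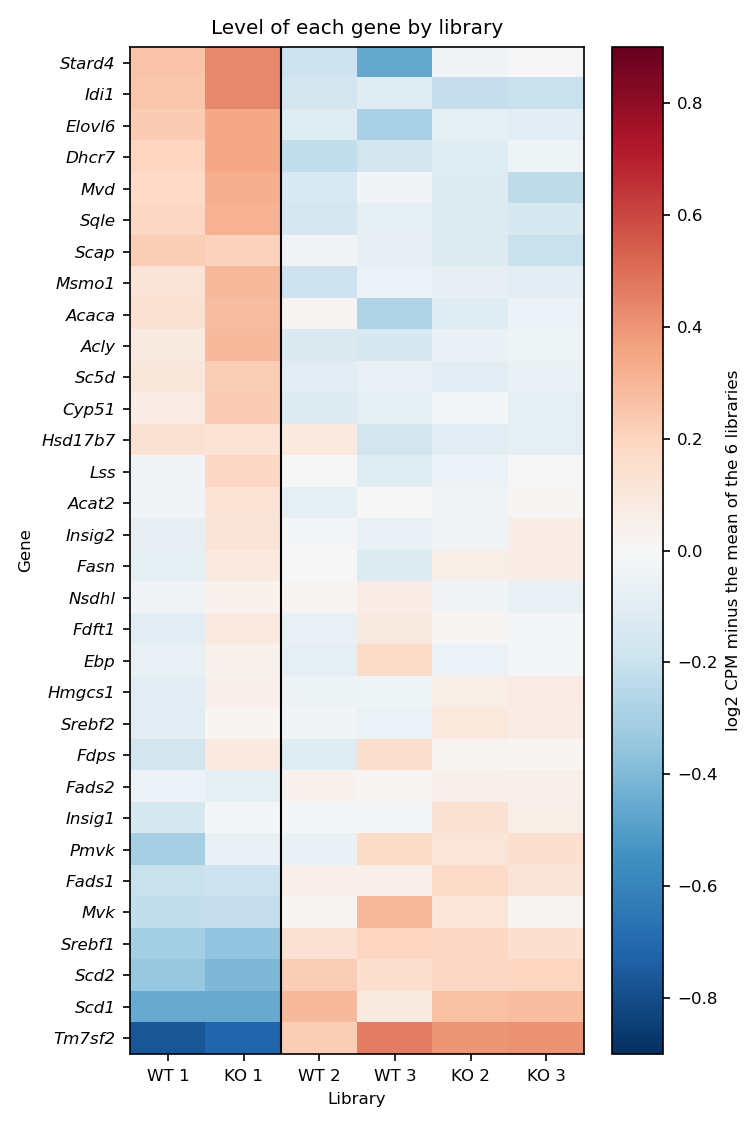
Level of each of the 32 genes in each library (columns), as log2 CPM minus the gene's mean over the 6 libraries (colour); the line divides the libraries numbered 1 from the others and genes are ordered by the difference between them. WT 1 and KO 1 share a pattern, from Stard4 and Idi1 at the top, higher in number 1, to Tm7sf2 at the bottom, lower.

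The difference ran the same way in both genotypes. Number 1 minus the mean of numbers 2 and 3 was 0.58 in WT and 0.45 in KO for Stard4, 0.39 and 0.63 for Idi1, 0.43 and 0.43 for Elovl6 and 0.38 and 0.42 for Dhcr7 (log2 CPM). It was −1.11 and −1.12 for Tm7sf2, −0.64 and −0.73 for Scd1, −0.53 and −0.59 for Scd2 and −0.47 and −0.52 for Srebf1. The sign was the same in WT and KO for 26 of the 32, and the median size of the difference was 0.28, against 0.33 over all tested genes. Of 10 other genes of sterol and isoprenoid synthesis, 9 were higher in both libraries numbered 1 than in the 4 others and 1 was lower.

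**Figure D3:**
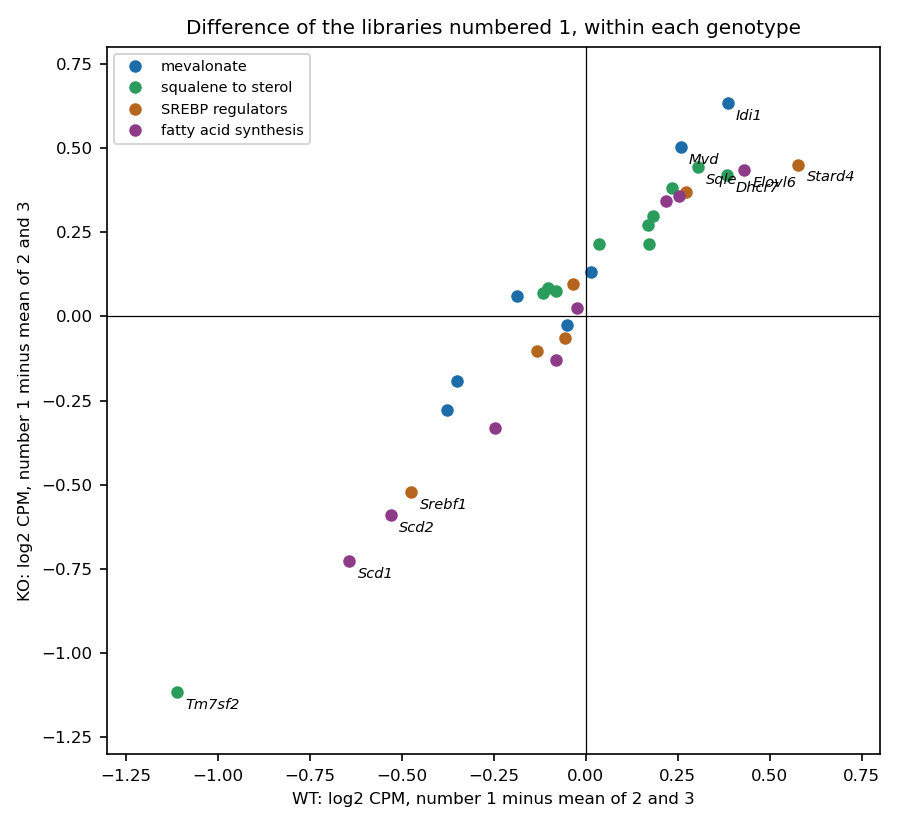
Difference in log2 CPM between the library numbered 1 and the mean of numbers 2 and 3, in WT (horizontal) and KO (vertical), for the 32 genes coloured by role. The points run along the diagonal from Tm7sf2, at −1.11 and −1.12, to Idi1 and Stard4.

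Other features of the libraries moved with number. The 7 astrocyte markers summed to 543 CPM in WT 1 and 471 CPM in KO 1 and to between 967 and 1181 CPM in the other 4. Hes5, a Notch target, was at 18.3 and 23.4 CPM in WT 1 and KO 1 and between 232 and 312 CPM elsewhere, and Nes, a progenitor filament gene, at 1738 and 1748 CPM against 687 to 807 CPM. The 8 oligodendrocyte lineage markers summed to between 1422 and 1501 CPM in all 6. The part of these markers in the pattern of the lipid genes was not tested.

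The rest of the pathway was read from 7 lists holding 113 genes, of which 111 were tested and Ch25h and Scd3 had too few counts. Without the block 0 of the 111 were called in edgeR, with 14 at an unadjusted p under 0.05, and DESeq2 called 4. With the block 5 were higher and 15 lower in KO, against 3.33% and 6.46% of all tested genes, so the calls named in the next paragraphs rest on the block. KO 2 and KO 3 were the most alike of the 6 pairs within a group; with their counts summed as 1 library and number 1 as the block, 7 of these 20 were called, and in the libraries numbered 2 and 3 alone 8 were. All 20 kept their direction in both. Leaving number 1, 2 or 3 out of the blocked fit gave 10, 13 and 21 calls.

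Of 13 tested genes of sterol efflux, storage and the LXR receptors that control them, 5 fell and 0 rose with the block, and the median log2 fold change was −0.34. Abcg4, a sterol exporter, was at 10.1, 14.5 and 13.9 CPM in WT and 4.89, 7.92 and 9.13 CPM in KO, all KO libraries below WT, with a log2 fold change of −0.84 ± 0.115 (SE). Apoe, the main lipid-carrying apolipoprotein of the brain, was at 126, 487 and 592 CPM in WT and 98.4, 378 and 362 CPM in KO, lower within each number, by −0.48 ± 0.081 (log2, SE). Abca1, which loads cholesterol onto such particles, was at 39.96, 155 and 112 CPM in WT and 23.5, 87.4 and 96.7 CPM in KO, by −0.60 ± 0.112 (log2, SE).

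Nceh1, a cholesterol ester hydrolase, fell by 0.34 on the log2 scale, from 39.5 ± 2.43 to 31.2 ± 1.97 CPM (SD, n = 3). Cyp46a1, the neuronal cholesterol hydroxylase, also fell, by 0.65 from a low level (3.37 CPM or less); it is named although it is the fifth of the list by p. Adjusted p of the 5 ranged from 0.0015 to 0.0387 in the blocked edgeR test and from 0.59 to 0.999 without the block. With KO 2 and KO 3 summed 3 of the list fell (Abcg4, Apoe and Abca1), and with numbers 2 and 3 alone 2 did (Abcg4 and Apoe). The calls of Nceh1 and Cyp46a1 were lost in both. Astrocyte markers moved beside this list, and with the block 4 of 7 fell and 1 rose. The log2 fold changes were −1.975 for Aldh1l1, −1.12 for Gfap, −0.81 for Slc1a2, −0.23 for Gja1 and 0.29 for Aldoc. Aldh1l1 was at 106.5, 170.6 and 198.6 CPM in WT and 35.8, 41.0 and 40.6 CPM in KO. The sum of the 7 was 543 to 1181 CPM in WT and 471 to 984 CPM in KO. Aldoc, which rose, made up most of that sum in the libraries numbered 2 and 3. Of 7 tested neuron markers 3 fell with the block and 0 rose, with a median of −0.46. The log2 fold changes of the 3 were −0.93 for Syt1, −1.38 for Stmn2 and −2.46 for Myt1l. The list of 8 summed to 549 to 766 CPM in WT and 635 to 765 CPM in KO. Most of that sum was Map2, at 710, 516 and 448.5 CPM in WT and 734, 568 and 575 CPM in KO. Its log2 fold change was 0.18, not called, so the sum says little about the other neuron markers. Sox10, of the oligodendrocyte lineage, fell by 0.92, Pdgfra of that lineage rose by 0.56, and mesenchymal Col1a2, at under 1 CPM in both group means, fell by 1.91 (log2). Of the 8 neural stem cell markers 1, Hes5, rose with the block and 0 fell, with a median of 0.15. Hes5 rose by 0.32 (log2), and edgeR gave adjusted p = 0.0161 with the block and 0.999 without it. The part of these markers in the results of this and the following lists was not tested.

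**Figure D4:**
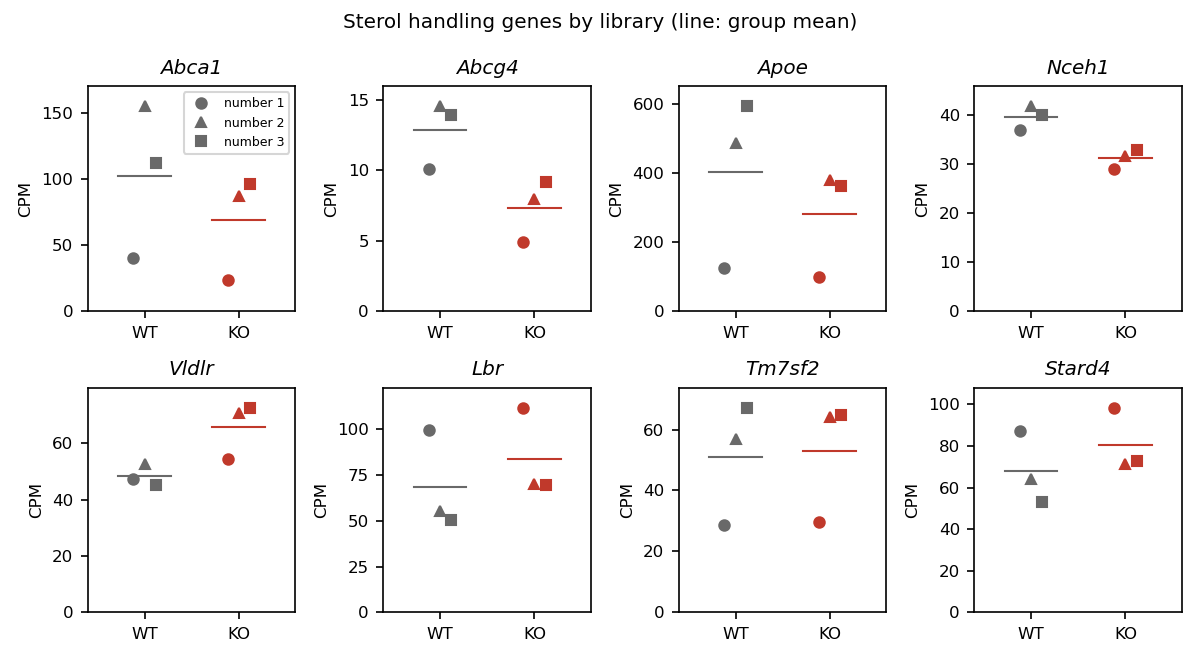
CPM (vertical axes, from 0) in each library of 4 genes of sterol efflux and storage (top row) and of Vldlr, Lbr, Tm7sf2 and Stard4 (bottom row), with the library number as marker shape and the group mean as a line. Abcg4 and Nceh1 have all KO libraries below all WT libraries, while Apoe and Abca1 are lower in KO within each number.

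Of 14 genes of sterol uptake and transport, 2 rose with the block and 0 fell. Vldlr, a lipoprotein receptor and 1 of these, was at 47.5, 52.7 and 45.3 CPM in WT and 54.3, 70.8 and 72.6 CPM in KO, all above WT, by 0.43 ± 0.091 (log2, SE), adjusted p = 0.0144 by blocked edgeR. Without the block edgeR gave Vldlr an adjusted p of 0.616, and its call was lost with KO 2 and KO 3 summed but not in numbers 2 and 3 alone. Of 10 other genes of sterol and isoprenoid synthesis Lbr rose and 0 fell, and of 11 genes of SREBP processing and turnover Fbxw7, a ubiquitin ligase component that marks SREBP for destruction, fell by 0.28 on the log2 scale (adjusted p = 0.0313 with the block and 0.775 without, edgeR) and 0 rose. The Fbxw7 call was lost both with KO 2 and KO 3 summed and in numbers 2 and 3 alone.

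Among 28 other genes of fatty acid synthesis and activation, 2 rose and 2 fell with the block, and the median was −0.00024. Acsl6, an acyl-CoA synthetase, was at 19.4, 21.9 and 22.6 CPM in WT and 12.7, 14.2 and 12.6 CPM in KO, a log2 fold change of −0.69 ± 0.090 (SE), while its relative Acsl1 was at 11.6, 10.6 and 10.7 CPM in WT and 15.8, 15.3 and 16.6 CPM in KO, a change of 0.54 ± 0.093 (SE). The groups did not overlap for either. Me1, malic enzyme, which supplies NADPH for lipid synthesis, was at 197, 184 and 186 CPM in WT and 145, 147 and 143 CPM in KO, by −0.38 ± 0.061 (log2, SE), and Acsl3 rose by 0.24 ± 0.060 (log2, SE), a call lost under upper-quartile scaling. Adjusted p of the 4 ranged from 0.00111 to 0.0325 in the blocked edgeR test and from 0.185 to 0.621 without the block. Acsl6, Me1 and Acsl1 were also called with KO 2 and KO 3 summed and in numbers 2 and 3 alone, and Acsl3 in neither.

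Of 16 genes of triglyceride and phospholipid synthesis 3 fell and 0 rose with the block. Lpin1, a phosphatidate phosphatase, was at 124, 123 and 113 CPM in WT and 105.6, 91.7 and 93.7 CPM in KO, by −0.31 ± 0.066 (log2, SE), Agpat3, an acyltransferase, changed by −0.26 ± 0.062 (log2, SE), and Lpin3, at 3.70 CPM or less, by −1.24 ± 0.230 (log2, SE). With KO 2 and KO 3 summed 1 of these, Lpin3, was called, and in numbers 2 and 3 alone 0 were. Of 19 genes of fatty acid oxidation, 4 fell and 0 rose with the block, with a median of −0.13. Cpt1a, which admits fatty acids to mitochondria, was at 189, 154 and 143 CPM in WT and 138, 133 and 129 CPM in KO (−0.27 ± 0.073, log2, SE), and its neural relative Cpt1c, Etfdh and Pdk4 changed by −0.30 ± 0.062, −0.30 ± 0.067 and −0.78 ± 0.169 (log2, SE). With KO 2 and KO 3 summed 0 of the 19 oxidation genes passed, and 1, Cpt1c, passed in the libraries numbered 2 and 3 alone. Adjusted p of these 7 genes ranged from 0.00778 to 0.0435 in the blocked edgeR test and from 0.59 to 0.999 without the block.

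**Figure D5:**
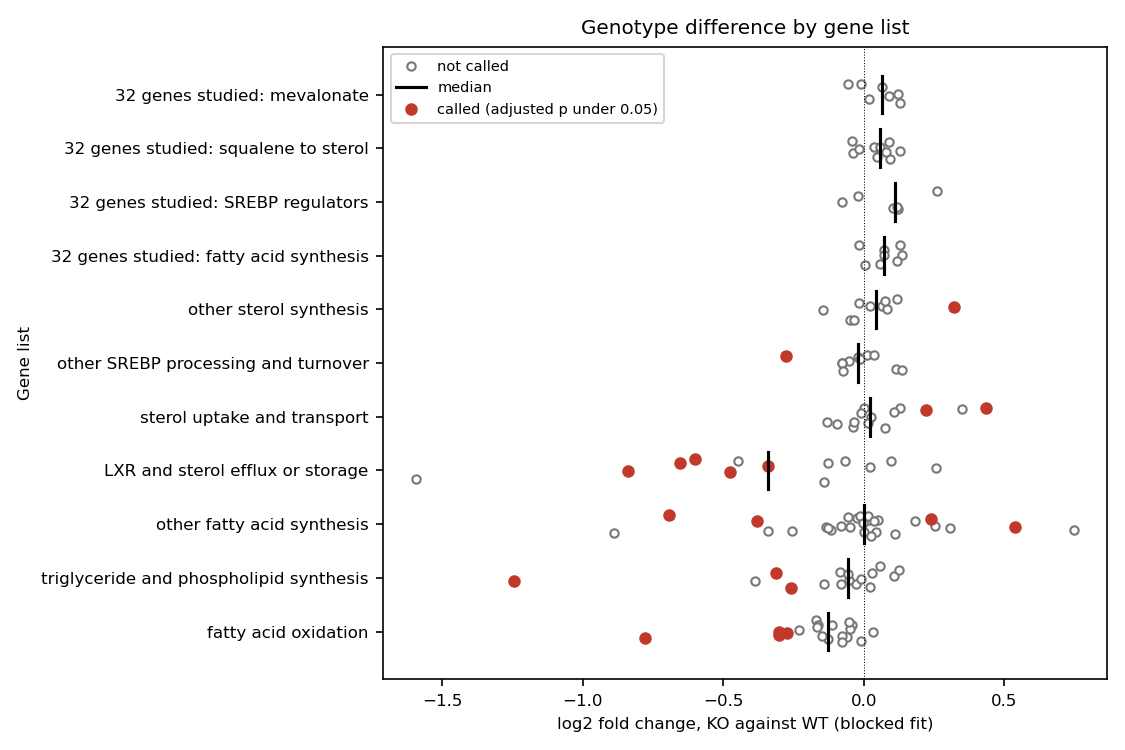
Log2 fold change of KO against WT (horizontal axis, blocked fit) for the 32 genes in 4 roles and for 7 lists of related genes; each point is a gene, filled where the adjusted p is under 0.05, and bars are medians. No point is filled in the 4 upper rows, and in the row of LXR and sterol efflux genes 5 are, all below 0.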

How the data were processed

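RNA-seq counts were available for 6 libraries of mouse neural stem cells, 3 WT and 3 KO, grouped and numbered from the sample titles. The table the authors deposited holds raw counts as whole numbers, with 1 row for each symbol. RSEM, Bowtie2, Trim Galore, cutadapt and FastQC and the build mm10 are named, without roles, in the submitters' processing notes; the sources used here give no versions, annotation or strand setting. Counts were tested in R 4.3.3 with edgeR 4.0.16 (filterByExpr, TMM scaling, robust quasi-likelihood fit, two-sided, Benjamini-Hochberg adjustment over 13683 genes, called at adjusted p under 0.05), and DESeq2 1.42.0 was an alternative. Each standard error is the size of a log2 fold change over the root of its F, and intervals are 95%. CPM values are TMM-scaled, and log2 CPM uses a prior count of 2. The scripts were tested on simulated data.

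Replicate numbers were treated as pairs. The correlation of deviations from group means was 0.854, 0.604 and 0.58 for the pairs 1, 2 and 3. The pairing was chosen from these values and not from the labels. However, WT 2 with KO 3 gave 0.633 and WT 3 with KO 2 gave 0.578. Centring on a group mean with number 1 far off makes numbers 2 and 3 deviate alike. The values thus set number 1 apart but do not pair 2 with 2 or 3 with 3. KO 2 and KO 3 were much more alike than WT 2 and WT 3 (median chi-square per gene 1.02 against 5.25). Still, 19.5% of genes in that KO pair exceeded the 95% limit of counting noise, against 55.6% in the WT pair. KO 2 and KO 3 were kept as 2 samples. Exon lengths are unions of exons in GENCODE vM21 on GRCm38, matched by symbol for 95.2% of symbols. The 32 genes, the other lists and the tests were chosen with earlier results of these data known. Full values are given for genes called in either fit, or else the 2 with the lowest blocked p in each role, and for up to 4 called genes of each list. Some genes are not reported here.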

Additional observations from a re-analysis of the deposited data

How the results depend on the processing

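All 21 alternatives gave 0 or 1 called genes of the 32: 1 with DESeq2 and the block, with the block and no filter on low counts, and with the block without replicate 2 (Stard4 each time), and 1 (Fdps) with the block without replicate 3. The called genes in the whole table, 8 without the block, were 1340 with the replicate block, 1445 with a block for number 1 alone, 262 with DESeq2, 1255 with DESeq2 and the block, 688 with KO 2 and KO 3 summed and 743 in numbers 2 and 3 alone. The block gave 1251 with DESeq2 size factors, 1310 with upper-quartile scaling and 1661 with no filter. Leaving out libraries gave from 0 to 21 without the block and 1037, 1248 and 1456 with it when number 1, 2 or 3 was left out.

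Of the 113 related genes, 0 were called without the block, including when any 1 library was left out, 4 with DESeq2, 20 with the replicate block or a block for number 1 alone, 19 with DESeq2 and the block, and with the block 19 under DESeq2 size factors, 19 under upper-quartile scaling and 22 with no filter; 8 were called in numbers 2 and 3 alone, 7 with KO 2 and KO 3 summed, and 10, 13 and 21 with the block without number 1, 2 or 3. The median log2 fold change of the 32 was 0.02 to 0.11 when 1 library was left out, the lowest (0.022) without KO 1. Of the 32, 12 kept their sign in all 21 alternatives. Without KO 1, in a fit where number 1 is held by WT only, Dhcr7 went to −0.0207 and Cyp51 to −0.0037 (log2); over all single libraries left out they reached 0.28 and 0.16, both without WT 1. Genes that separate number 1 were 20 to 22 under other scalings. Where a count moved with a test or a scaling, the cause was not tested.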
